A study of Mus musculus with 3 samples.

Results

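The cells described here are stromal cells of the busulfan-treated mouse testis that carried more transcripts of Mfap5, Igfbp6 and Pi16 than of the genes that mark the other stromal cells beside them. They were chosen from the counts themselves. Cells were kept with 500 or more unique molecular identifiers (UMIs, each one captured RNA molecule), 300 or more genes and a mitochondrial share of UMIs of up to 20%. It counted as stromal if it had a UMI of at least 3 of Pdgfra, Dcn, Col1a1, Col1a2, Col3a1 and Tcf21, no UMI of Ptprc, Pecam1 or Myh11, and under 0.3% of its UMIs from the steroid enzymes Cyp11a1, Cyp17a1 and Hsd3b6. A stromal cell became a member if its UMIs of Mfap5, Igfbp6 and Pi16 together reached 2 and exceeded the sum of Cyp26b1, Col4a3 and Col4a4, that of Dlk1, Igf1 and Col15a1, and that of Thbd, Cd248 and Cd34. This gave 4716 members of 10539 stromal cells and 24252 kept cells, with 1371 members in the dEXO, 2076 in the EXO and 1269 in the PBS library. Of the UMIs behind the choice, Igfbp6 supplied 93.4% (dEXO), 93.9% (EXO) and 94.9% (PBS), so the members are called Igfbp6-led stromal cells below.

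Adventitial fibroblasts lie in the outer coat of vessels and in the connective tissue around organs, and in many mouse tissues they share Pi16, Dpp4 and Ly6c1 and are thought of as a reserve for more specialised fibroblasts. Igfbp6 is a secreted protein that binds insulin-like growth factors, with a preference for IGF2. Mfap5 is a glycoprotein of the microfibrils that carry elastin, and Pi16 is a membrane-anchored protein of the CAP superfamily. In the testis, stromal cells fill the interstitium around the tubules, the vessels and the Leydig cells, and some are progenitors of Leydig cells.

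Single cells of mouse testis were captured in droplets and the 3' ends of their transcripts sequenced, with 1 library per group. All 3 groups were given busulfan, a cytotoxic alkylating agent that empties the tubules of germ cells, as a model of azoospermia, and an untreated testis was not analysed here. The dEXO group was injected with blood exosomes, small membrane vesicles, from mice with an imbalanced gut microbiota, the EXO group with blood exosomes from wild-type mice, and the PBS group with saline. The tissue label is testis, and germ cell and Leydig cell transcripts were plentiful, although the dissociation text speaks of an aorta. Strain, age, times and the number of animals behind each library are not given in the sources used here. With a single sample per group, differences have no replicate check and are given without p-values, and the 95% intervals reflect the error of counting UMIs or cells alone.

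The libraries held 9760 barcodes (dEXO), 10228 (EXO) and 5514 (PBS), and between 91787154 and 97253862 UMIs each, so PBS cells were sequenced more deeply. Members had a median of 2186 UMIs (dEXO), 2560 (EXO) and 5109 (PBS), close to the other stromal cells of the same library at 2219.5 (dEXO), 2552 (EXO) and 5376 (PBS). Each pair of libraries shared 19 deposited barcodes, and 0 or 1 of those shared were members in both libraries. The rule on detected genes also let in deep cells of other kinds: 58 (dEXO), 38 (EXO) and 7 (PBS) members took at least 1% of their UMIs from 13 germ cell genes, and these alone held 67.1% (dEXO), 43.6% (EXO) and 13.4% (PBS) of all member UMIs. Sums over members were therefore restricted to stromal-rich members, cells with at least 0.5% of their UMIs from the 6 stromal genes of the rule, a limit chosen after the data were seen. They numbered 1241 (dEXO), 1894 (EXO) and 1141 (PBS), which is 90.5% (dEXO), 91.2% (EXO) and 89.9% (PBS) of the members, and held 2929137 (dEXO), 5277985 (EXO) and 6261039 (PBS) UMIs. The limit left out 130 (dEXO), 182 (EXO) and 128 (PBS) members, germ-rich or not, and kept 12 (dEXO), 2 (EXO) and 0 (PBS) germ-rich ones. Leydig-rich members, with at least 1% of UMIs from 10 Leydig genes, numbered 74 (dEXO), 188 (EXO) and 160 (PBS). Of these, 26 (dEXO), 72 (EXO) and 55 (PBS) stayed among the stromal-rich members. Levels are given as CPM, the UMIs of a gene divided by all UMIs of the stromal-rich cells and multiplied by 1000000. A value over all members is given where a named-gene ratio of at least 2-fold changed direction. Smaller ratios that changed direction over all members are not listed.

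The members sat on a continuum. The median member had 13 UMIs (dEXO), 16 (EXO) and 29 (PBS) of the 3 genes together, and 18 (dEXO), 25 (EXO) and 10 (PBS) members had exactly 2. In 170 (dEXO), 208 (EXO) and 51 (PBS) members the lead over the next sum was a single UMI, while 156 (dEXO), 207 (EXO) and 54 (PBS) stromal cells were left out for a tie. Among the genes looked at on both sides of the limit, S100a6 stood at 1247 CPM (dEXO), 1498 (EXO) and 1003 (PBS) just inside it, and at 1107 CPM (dEXO), 1669 (EXO) and 1228 (PBS) in the ties just outside. Clec3b stood at 1151 CPM (dEXO), 1027 (EXO) and 834 (PBS) inside, against 1118 (dEXO), 1241 (EXO) and 683 (PBS) in the ties. Ly6a stood at 331 CPM (dEXO), 171 (EXO) and 106 (PBS) inside, against 310.2 (dEXO), 262 (EXO) and 88.7 (PBS) in the ties, so it was farthest apart in EXO, where the ties were higher.

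The name adventitial-like was set beside 24 adventitial genes that the rule did not use. This is no independent test of the name. The list was chosen with earlier results of these data known, and it holds S100a6, a marker given for these cells. Of these, 16 had enough UMIs to compare in all 3 libraries. In each library 15 of the 16 were higher in members than in other stromal cells, with Anxa3 the exception, against 18.9% of all tested genes. Cells led by Thbd, Cd248 and Cd34 were 116 of 1793 (dEXO), 186 of 2727 (EXO) and 47 of 960 (PBS) of those other cells. The comparison therefore says little about that set, which is taken up below. S100a6, a calcium-binding protein, was detected in 73.1% (dEXO), 79.0% (EXO) and 73.1% (PBS) of members after each cell was thinned to 1000 UMIs, to remove the depth gap. Unthinned, the shares were 84.4% (dEXO), 88.6% (EXO) and 91.7% (PBS). Cells with lymphocyte genes, called lymphocyte-like, carried S100a6 about as often, with 68.4% (dEXO), 72.4% (EXO) and 76.7% (PBS) after thinning. They are no clean reference: the germ cell gene Ldhc stood at 5811 CPM (dEXO), 3670 (EXO) and 3937 (PBS) in them. The part of other cells' RNA in their S100a6 was not tested. Mfap5 was found in 28.5% (dEXO), 27.6% (EXO) and 26.8% (PBS) and Pi16 in 7.80% (dEXO), 9.54% (EXO) and 6.31% (PBS) of thinned members. Lymphocyte-like cells had Mfap5 in 0.527% (dEXO), 0.305% (EXO) and 0.480% (PBS). Their share with Pi16 is not given here, so the Pi16 shares stand without that reference. In Thbd-led cells, thinned, Mfap5 was found in 21.0% (dEXO), 23.8% (EXO) and 13.3% (PBS) and Pi16 in 12% (dEXO), 18.9% (EXO) and 4.44% (PBS), of 100 (dEXO), 164 (EXO) and 45 (PBS) cells, so Pi16 was found more often there than in members of dEXO and EXO. Cyp26b1-led cells had Mfap5 in 11.5% (dEXO), 8.14% (EXO) and 10.5% (PBS). Unthinned, members had Mfap5 in 47.0% (dEXO), 48.0% (EXO) and 61.2% (PBS) and Pi16 in 14.2% (dEXO), 18.4% (EXO) and 17.3% (PBS). Cells under 1000 UMIs drop out of the thinned shares, which rest on 1077 (dEXO), 1709 (EXO) and 1078 (PBS) members.

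Dpp4, the dipeptidyl peptidase that marks this fibroblast state in other mouse tissues, was all but undetected. It had a UMI in 2 of 1241 dEXO members at full depth, in 0 of 1894 EXO members, which allows a share of up to 0.158%, and in 0 of 1141 PBS members, which allows up to 0.263%. These limits, of 3 counts, are on cells with a UMI and not on cells that express the gene, at median depths of 2053 (dEXO), 2431 (EXO) and 4816 (PBS) UMIs. Opcml and Procr, also on the adventitial list, were found in at most 3 members of any library. Igfbp6 was not restricted to the members either: after thinning it was found in 98.6% (dEXO), 98.6% (EXO) and 97.8% (PBS) of members, but also in 83.5% (dEXO), 87.4% (EXO) and 85.0% (PBS) of cells led by Cyp26b1, and in 2.64% (dEXO), 6.26% (EXO) and 2.64% (PBS) of lymphocyte-like cells. Leydig-like cells had it in 18.9% (dEXO), 21.5% (EXO) and 33.0% (PBS) and germ-like cells in 5.25% (dEXO), 7.38% (EXO) and 6.81% (PBS). The position of these cells in the tissue was not measured.

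Transcripts of other cell types were present at varying levels. Summed over 12 mesothelial genes, which mark the covering of the testis, members had 60.8 CPM (dEXO), 38.3 (EXO) and 33.9 (PBS). Other stromal cells had 41.0 CPM (dEXO), 28.4 (EXO) and 31.8 (PBS), so the sum was higher in members of each library. In members 3 (dEXO), 0 (EXO) and 5 (PBS) of the 12 were at 0. Just 2 (dEXO), 1 (EXO) and 1 (PBS) reached 10 CPM, so the sum rests on few genes. The 2 mesothelial genes with enough UMIs to compare had median log2 ratios of 0.13 (dEXO), 0.15 (EXO) and -0.20 (PBS). The 8 pericyte genes came to 119.8 CPM (dEXO), 124 (EXO) and 97.4 (PBS), no higher than in other stromal cells, at 136 CPM (dEXO), 146 (EXO) and 116 (PBS). The 12 macrophage genes gave 117 CPM (dEXO), 101 (EXO) and 165 (PBS) in members, with none at 0, against 119 CPM (dEXO), 113 (EXO) and 84.5 (PBS) in other stromal cells. The 10 Leydig genes, which include Insl3 and Star, gave 2259 CPM (dEXO), 3083 (EXO) and 3737 (PBS) in members, with none at 0, against 2457 CPM (dEXO), 3099 (EXO) and 2846 (PBS) in other stromal cells. Transcripts of the 13 germ cell genes followed the libraries: they came to 1891 CPM (dEXO), 756 (EXO) and 277 (PBS) in stromal-rich members, against 1924 CPM (dEXO), 839 (EXO) and 287 (PBS) in other stromal cells. The 12 Sertoli genes came to 437 CPM (dEXO), 260.1 (EXO) and 185 (PBS) in members, against 357 CPM (dEXO), 267 (EXO) and 97.2 (PBS) in other stromal cells, and 5 of 7 tested were at least 2-fold higher in the members of dEXO over PBS, against 8.75% of all genes. Relative to the median gene it was 4 of 7, against 6.83% of all genes. The part of these transcripts in the results below was not tested, except where values are given.

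The members made up less of the stroma in both exosome libraries than in the PBS library. They were 41.6% of stromal cells in dEXO (39.9 to 43.3), 41.7% in EXO (40.3 to 43.1) and 56.0% in PBS (53.9 to 58.0). The odds of being a member were 0.562 times (0.503 to 0.627) those of PBS in dEXO and 0.563 times (0.509 to 0.623) in EXO, both against the same PBS library. Between dEXO and EXO the odds ratio was 0.997 (0.911 to 1.09). Thinned to 1000 UMIs, with 2610 (dEXO), 4144 (EXO) and 1938 (PBS) stromal cells left, the shares were 36.5% (dEXO), 36.6% (EXO) and 46.4% (PBS), with odds ratios 0.663 (dEXO over PBS) and 0.665 (EXO over PBS). Over all kept cells, where germ cells and other types enter the denominator, the members were 15.0% (dEXO), 21.1% (EXO) and 24.1% (PBS).

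By the rule, a cell's place depends on the competing genes as well as on the members' own. Over all stromal-rich stromal cells together, Mfap5, Igfbp6 and Pi16 summed to 4191 CPM (dEXO), 4706 (EXO) and 4724 (PBS). Cyp26b1, Col4a3 and Col4a4 summed to 3604 CPM (dEXO), 3908 (EXO) and 2748 (PBS) in the same cells. Over all stromal cells, germ-rich ones included, the sums were 1807 CPM (dEXO), 2859 (EXO) and 3624 (PBS) for the members' genes and 1536 CPM (dEXO), 2345 (EXO) and 2051 (PBS) for the Cyp26b1 sum. EXO and PBS were thus close in the members' genes over stromal-rich cells, but not over all stromal cells. Fewer cells of other stromal kinds and less of those transcripts per cell cannot be told apart in these sums.

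**Figure D1:**
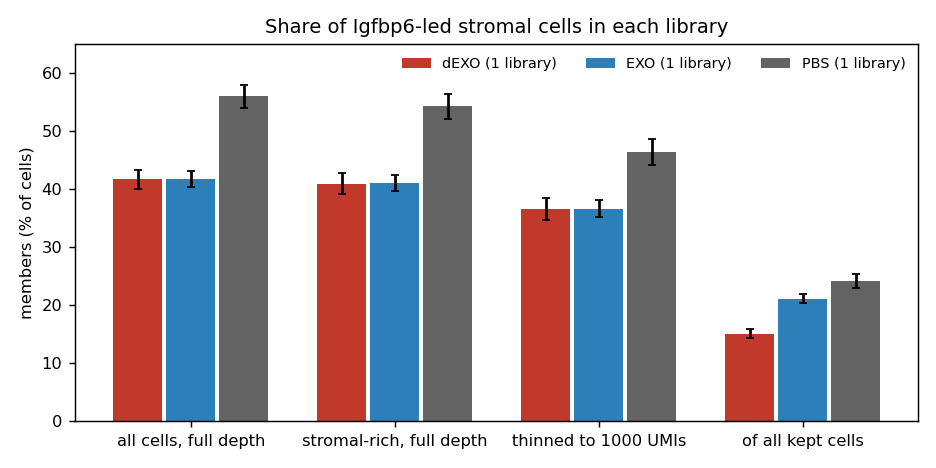
Share of Igfbp6-led stromal cells (y axis, % of cells) in the dEXO, EXO and PBS libraries under 4 ways of counting, with bars for the share and whiskers for the exact 95% interval (counting error only, 1 library each). The dEXO and EXO bars of stromal cells are nearly level and lie below PBS, at 41.6%, 41.7% and 56.0% at full depth, whereas over all kept cells dEXO lies lowest at 15.0%.

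Members differed from other stromal cells of the same library in a short list of genes. Of 10706 genes tested, 26 (0.243%) were at least 2-fold higher and 21 (0.196%) at least 2-fold lower in the members of all 3 libraries. Genes of the rule were not taken out of these counts, and Igfbp6, Mfap5 and Pi16 are among the 26. Over all members, the germ-rich cells included, 1531 (11.7%) of 13114 genes were higher and 281 (2.14%) lower, led by spermatid genes. The genes of the rule differ by choice and are given as a description: Igfbp6 stood at 6259 CPM (dEXO), 7125 (EXO) and 6384 (PBS) in members, against 2323 (dEXO), 2595 (EXO) and 2329 (PBS) in other stromal cells. Mfap5 stood at 353 CPM (dEXO), 359 (EXO) and 292 (PBS) in members, against 120.2 (dEXO), 107 (EXO) and 94.8 (PBS), and Pi16 at 86.7 CPM (dEXO), 105 (EXO) and 54.6 (PBS), against 36.6 (dEXO), 27.8 (EXO) and 18.5 (PBS). In GRCm38, the build named in the submitters' processing notes, Igfbp6 lies at chr15:102144362-102149511, Mfap5 at chr6:122505845-122529290, Pi16 at chr17:29317680-29330593 and S100a6 at chr3:90612882-90624181.

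Among the genes that the rule did not use were several surface and secreted proteins. Ly6c1, a GPI-anchored surface antigen, was found at 94.2 CPM (dEXO), 116 (EXO) and 84.0 (PBS) in members, against 22.6 (dEXO), 26.2 (EXO) and 20.9 (PBS) in other stromal cells, a log2 ratio of 2.06 (dEXO), 2.14 (EXO) and 2.01 (PBS). Ly6a, known as Sca-1 and used to sort mesenchymal progenitors, stood at 457 CPM (dEXO), 495 (EXO) and 356 (PBS) against 163 (dEXO), 159 (EXO) and 109 (PBS) in other stromal cells. Reads of these related Ly6 genes can be shared, which makes their separate levels uncertain, but both lay over 2-fold higher in members of every library. Clec3b, the secreted plasminogen-binding protein tetranectin, stood at 1821 CPM (dEXO), 2010.4 (EXO) and 1531 (PBS) in members, against 649.6 (dEXO), 594 (EXO) and 637 (PBS) in other stromal cells, with log2 ratios of 1.49 (dEXO), 1.76 (EXO) and 1.27 (PBS). Fn1, which encodes the matrix protein fibronectin, was low but higher in members, at 50.2 CPM (dEXO), 51.5 (EXO) and 21.1 (PBS) against 23.3 (dEXO), 20.4 (EXO) and 6.18 (PBS) in other stromal cells. Tnxb, the matrix protein tenascin-X, gave 132 CPM (dEXO), 145 (EXO) and 91.2 (PBS) in members, against 64.3 (dEXO), 57.4 (EXO) and 45.2 (PBS) in other stromal cells. Over all members, the germ-rich ones included, both matrix genes were lower in the dEXO library, at -0.31 for Fn1 and -0.25 for Tnxb on the log2 scale.

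Genes of other roles were higher as well. S100a6 was at 1955 CPM (dEXO), 2754 (EXO) and 2079.5 (PBS) in members, against 880.5 (dEXO), 968 (EXO) and 795 (PBS) in other stromal cells, log2 ratios of 1.15 (dEXO), 1.51 (EXO) and 1.39 (PBS). The actin-severing protein gelsolin, Gsn, stood at 9192 CPM (dEXO), 9359 (EXO) and 8486 (PBS) against 4371 (dEXO), 3984 (EXO) and 4204 (PBS) in other stromal cells, so its ratio lay at the 2-fold limit in PBS (1.01, 0.99 to 1.04). Crip1, a small LIM-domain protein, was at 343 CPM (dEXO), 602 (EXO) and 364 (PBS) in members, against 124 (dEXO), 151 (EXO) and 96.3 (PBS) in other stromal cells. Tppp3, a tubulin-binding protein found in tendon sheath progenitors of the mouse, stood at 119.8 CPM (dEXO), 135 (EXO) and 99.98 (PBS) against 32.9 (dEXO), 25.7 (EXO) and 30.2 (PBS). Crip2, Anxa8, Mustn1, Lgals3, Cd9, Ccdc3, Tubb2b, Rftn1 and Lpl were also at least 2-fold higher in members of each library. Tuba1a, Tagln2, Thbs3, Tgfbr2 and Adgrd1 were higher in each but under 2-fold in at least 1 library, for example Tgfbr2, a receptor of TGF-beta, with log2 ratios of 1.04 (dEXO), 1.55 (EXO) and 0.93 (PBS). Over all members of the dEXO library, S100a6 (-0.14), Gsn (-0.21), Cd9 (-0.21), Ccdc3 (-0.11), Lpl (-0.36), Thbs3 (-0.076), Tgfbr2 (-0.25) and Adgrd1 (-0.091) lay below the other stromal cells on the log2 scale. Tuba1a and Tubb2b have close paralogs whose reads may be split between copies.

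Other genes were lower in members. Mfap4, an elastic fibre protein, stood at 60.1 CPM (dEXO), 59.1 (EXO) and 71.7 (PBS) in members, against 201 (dEXO), 199 (EXO) and 248 (PBS) in other stromal cells, with log2 ratios of -1.74 (dEXO), -1.75 (EXO) and -1.79 (PBS). C1qtnf3, a secreted C1q-like protein, was at 51.6 CPM (dEXO), 64.6 (EXO) and 65.8 (PBS) against 192 (dEXO), 239 (EXO) and 179 (PBS) in other stromal cells, and Asb2, a subunit of a ubiquitin ligase, at 18.4 CPM (dEXO), 24.4 (EXO) and 23.8 (PBS) against 68.0 (dEXO), 86.6 (EXO) and 64.1 (PBS). Adcy7, Casq2 and Peg3 were at least 2-fold lower too. Ptch1, the Hedgehog receptor and itself a Hedgehog target, stood at 263 CPM (dEXO), 283 (EXO) and 143 (PBS) in members, against 520.0 (dEXO), 516 (EXO) and 297 (PBS) in other stromal cells. Ccn2, a matrix-associated growth factor target of YAP and TGF-beta, was at 273 CPM (dEXO), 303 (EXO) and 202 (PBS) against 688 (dEXO), 708 (EXO) and 375 (PBS). Both lay near the 2-fold limit, with log2 ratios of -0.99 (dEXO), -0.87 (EXO) and -1.05 (PBS) for Ptch1 and -1.33 (dEXO), -1.22 (EXO) and -0.89 (PBS) for Ccn2.

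**Figure D2:**
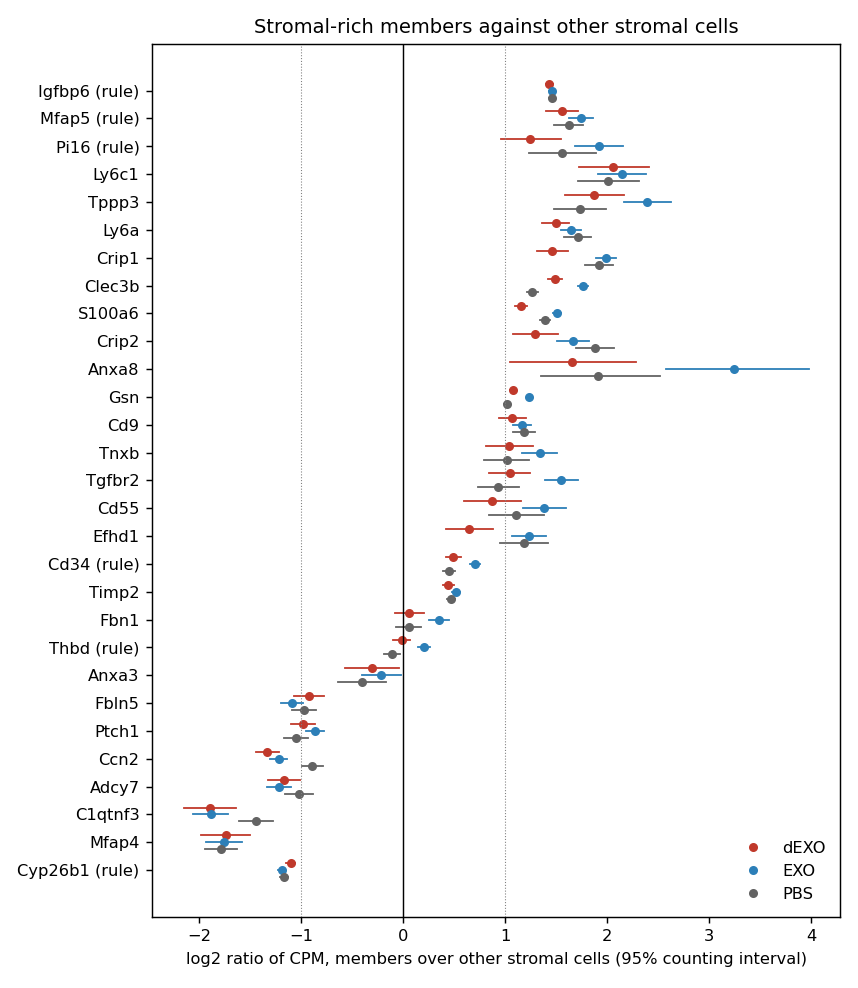
log2 ratio of CPM between stromal-rich members and other stromal cells (x axis) for 29 named genes (y axis), one point per library with its 95% counting interval and dotted lines at 2-fold. Ly6c1, Ly6a, Clec3b and S100a6 lie right of the upper 2-fold line and Mfap4 and C1qtnf3 left of the lower one in all 3 libraries, while Fbn1 and Thbd lie near 0; genes marked as rule genes differ by choice.

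Gene groups differed less than the leading genes. Of all 10706 tested genes, 18.9% were higher and 40.1% lower in members of all 3 libraries, by any amount. Among the adventitial genes outside the rule, 5 of 16 (S100a6, Ly6c1, Ly6a, Clec3b and Tnxb) were at least 2-fold higher in every library and none at least 2-fold lower, with list medians of 0.75 (dEXO), 1.20 (EXO) and 0.56 (PBS) on the log2 scale, against -0.07 (dEXO), -0.08 (EXO) and -0.12 (PBS) over all tested genes. Cd55 and Efhd1 were higher without reaching 2-fold everywhere, at 0.87 (dEXO), 1.38 (EXO) and 1.11 (PBS) for Cd55, and Fbn1, the microfibril backbone, was barely higher, at 0.06 (dEXO), 0.35 (EXO) and 0.05 (PBS). S100 and annexin genes were mostly higher: 12 of 15 in all 3 libraries, S100a6 and Anxa8 by at least 2-fold, with S100a10 at 0.51 (dEXO), 0.47 (EXO) and 0.53 (PBS) and Anxa2 at 0.61 (dEXO), 0.62 (EXO) and 0.73 (PBS). Of 35 oxidative phosphorylation genes 29 were higher in every library, with a list median of 0.19, and none by 2-fold. Of 15 basement membrane genes 11 were lower in every library, none by 2-fold, such as Col4a5 at -0.52 (dEXO), -0.60 (EXO) and -0.70 (PBS).

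The elastic fibre and fibrillar collagen lists held no gene outside the rule that was at least 2-fold higher in all 3 libraries, against 0.243% of all tested genes. Of 16 elastic fibre genes outside the rule, 6 were higher and 7 lower in all 3 libraries, against 18.9% higher and 40.1% lower over all tested genes. Mfap4 passed the 2-fold limit, downwards. Of 19 fibrillar collagen genes 4 were higher and 8 lower in all 3 libraries, near the shares over all tested genes. Fmod, which binds collagen fibrils, was the single one at least 2-fold lower. Col3a1, a gene of the rule and not among the 19, lay at -0.05 (dEXO), -0.00 (EXO) and -0.18 (PBS). Immediate early genes were higher in members for 14 of 19, against 18.9% of all tested genes, with a list median of 0.35, none 2-fold. Outside the genes of the rule, the interferon, Wnt, TGF-beta, IGF and retinoid lists had no gene at least 2-fold apart in all 3 libraries in either direction. Over all tested genes 0.243% were that much higher and 0.196% lower, so lists this short do not differ from the rest by holding none.

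Fewest genes set the Igfbp6-led cells apart from the small Thbd, Cd248 and Cd34 set. Against Thbd-led cells, 26 of 8350 genes (0.311%) were at least 2-fold higher and 20 (0.24%) lower in all 3 libraries. Against Cyp26b1-led cells the counts were 87 of 10089 (0.862%) higher and 71 (0.704%) lower, and against Dlk1- and Igf1-led cells 174 of 9003 (1.93%) higher and 55 (0.611%) lower. Genes of the rule, which differ by choice, were not taken out of these counts. The numbers of cells differ, with 116 (dEXO), 186 (EXO) and 47 (PBS) Thbd-led cells, so the genes that reached the minimum count differ too. Several leading genes of the members stood at similar levels in the Thbd-led cells. S100a6 stood at 1895 CPM (dEXO), 2383 (EXO) and 1799.8 (PBS) there, against 818 (dEXO), 794 (EXO) and 751 (PBS) in Cyp26b1-led cells. Ly6c1 was at 109 CPM (dEXO), 129.8 (EXO) and 80.7 (PBS) in Thbd-led cells, close to its level in members. Adgrd1, an adhesion receptor, was highest in the Thbd-led cells, at 214 CPM (dEXO), 319.8 (EXO) and 267 (PBS), against 116 CPM (dEXO), 139 (EXO) and 68.0 (PBS) in members and 12.6 CPM (dEXO), 1.99 (EXO) and 15.8 (PBS) in Dlk1-led cells.

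**Figure D3:**
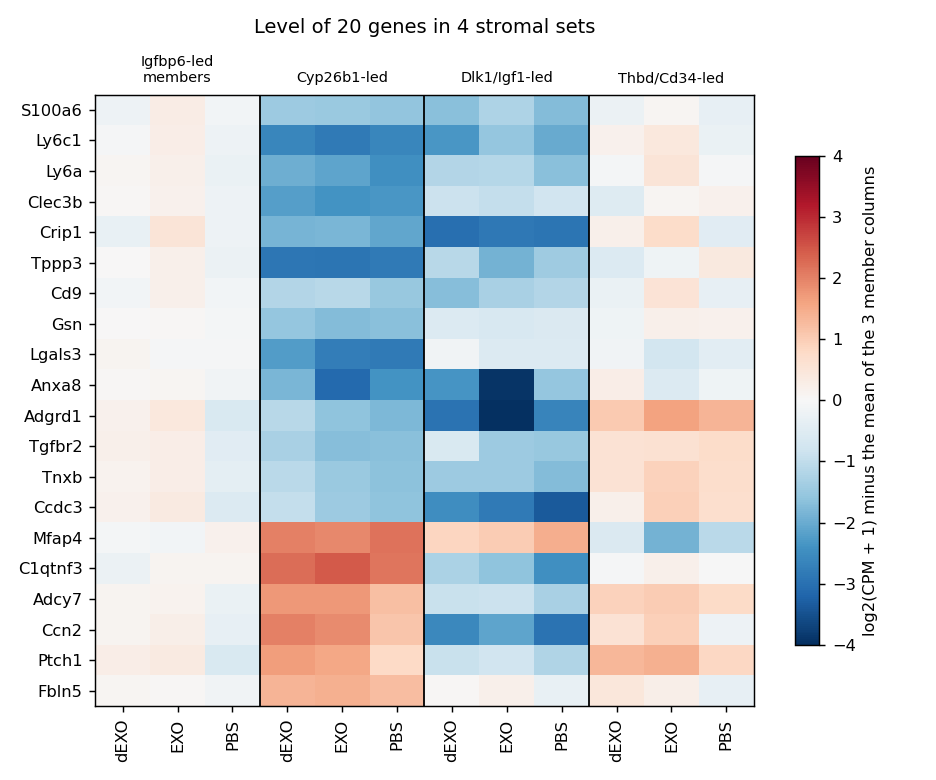
Levels of 20 named genes (rows) in 4 stromal sets of the dEXO, EXO and PBS libraries (columns), as log2(CPM + 1) minus the mean of the member columns, with the colour scale ending at 4 either way. The Thbd/Cd34-led columns are close to white for S100a6, Ly6c1, Ly6a and Gsn, as in the members, while the Cyp26b1-led columns are blue for Clec3b and red for Mfap4.

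Among the members, those with a UMI of Pi16 held more Fn1, Crip1, Adgrd1 and Ly6c1 and less Apoe than those without. Pi16 is a gene of the rule, so this split describes the members and is no test. At full depth, 176 (dEXO), 349 (EXO) and 197 (PBS) stromal-rich members had a UMI of Pi16, with medians of 2339 (dEXO), 2699 (EXO) and 5120 (PBS) UMIs, against 2011 (dEXO), 2370 (EXO) and 4734.5 (PBS) in members without one. All 3 rule genes were found together in 8.70% (dEXO), 11.7% (EXO) and 13.2% (PBS) of members at full depth, and in 2.23% (dEXO), 3.80% (EXO) and 2.32% (PBS) after thinning. Igfbp6 alone was found in 47.5% (dEXO), 45.2% (EXO) and 34.8% (PBS) at full depth, and in 64.9% (dEXO), 65.5% (EXO) and 67.1% (PBS) after thinning, so the order of the libraries at full depth did not hold at equal depth. After thinning, Mfap5 was found in 28.6% (dEXO), 39.9% (EXO) and 36.8% (PBS) of cells with Pi16, against 28.5% (dEXO), 26.3% (EXO) and 26.1% (PBS) of cells without. The shares with Pi16 rest on 84 (dEXO), 163 (EXO) and 68 (PBS) cells, with intervals of 19.2 to 39.5, 32.3 to 47.8 and 25.4 to 49.3. In EXO that interval lay above the one without Pi16, and in dEXO and PBS they overlapped. At full depth, where cells with Pi16 had more UMIs, Mfap5 was found in 61.4% (dEXO), 63.3% (EXO) and 76.6% (PBS) of them. Without Pi16 the shares were 44.6% (dEXO), 44.6% (EXO) and 57.9% (PBS).

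Of 7717 genes tested, 17 (0.22%) were at least 2-fold higher and 24 (0.311%) lower in members with Pi16 in all 3 libraries. Fn1 was at 127 CPM (dEXO), 135 (EXO) and 56.2 (PBS) in members with Pi16, against 35.4 (dEXO), 30.2 (EXO) and 13.3 (PBS) in members without, with log2 ratios of 1.84 (dEXO), 2.17 (EXO) and 2.08 (PBS). Thbd, the anticoagulant receptor thrombomodulin and a competing gene of the rule, stood at 1120.0 CPM (dEXO), 1505 (EXO) and 874 (PBS) with Pi16, against 532 (dEXO), 701 (EXO) and 336 (PBS) without. Crip1, Adgrd1, Ccdc3, Tgfbr2 and Ly6c1 were higher too, Adgrd1 with log2 ratios of 1.28 (dEXO), 1.79 (EXO) and 2.18 (PBS). Lower were Apoe, the lipid carrier, at 2915 CPM (dEXO), 2299 (EXO) and 2457 (PBS) with Pi16, against 6471 (dEXO), 5999 (EXO) and 6053 (PBS) without, and Lipg, a lipase. Insl3, the Leydig cell hormone, stood at 363 CPM (dEXO), 615 (EXO) and 578 (PBS) with Pi16, against 773 (dEXO), 1318 (EXO) and 1910.1 (PBS) without, and Lhcgr, the receptor for luteinising hormone on Leydig cells, was lower as well, with log2 ratios of -1.71 (dEXO), -1.39 (EXO) and -1.65 (PBS). How far Leydig RNA in the droplets, or the Leydig-rich cells kept among the stromal-rich members, contributes to the last pair was not tested.

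**Figure D4:**
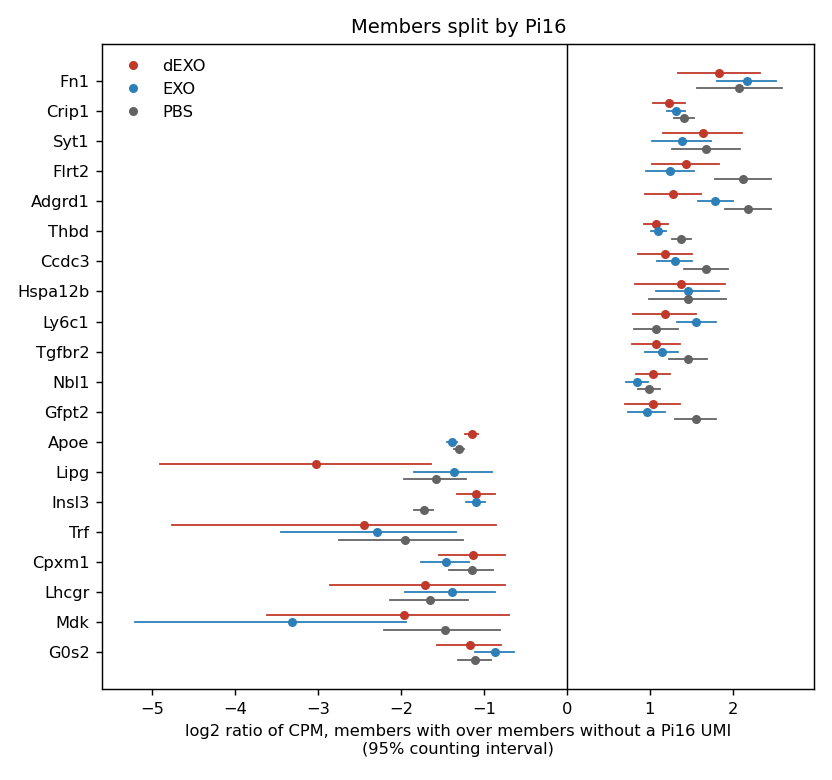
log2 ratio of CPM between stromal-rich members with and without a Pi16 UMI (x axis) for the 12 highest and 8 lowest genes by the interval bound nearest 0 (y axis), one point per library with its 95% counting interval. The 12 upper genes, from Fn1 to Gfpt2, lie right of 0 and the 8 lower ones, from Apoe to G0s2, left of 0 in all 3 libraries.

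Between libraries, Igfbp6, Mfap5 and Clec3b differed little in the members. Igfbp6, Mfap5 and Pi16 chose the members, so their levels there depend on the rule and are given as a description. Relative to the median gene, which itself lay 0.22 above 0 on the log2 scale in dEXO over PBS and 0.24 above in EXO over PBS, Igfbp6 differed by -0.25 (dEXO over PBS) and -0.08 (EXO over PBS). Mfap5 differed by 0.05 (dEXO over PBS) and 0.06 (EXO over PBS), and Clec3b by 0.03 (dEXO over PBS) and 0.16 (EXO over PBS). Pi16 was higher in both exosome libraries, by 0.45 (0.21 to 0.68) in dEXO over PBS and 0.70 (0.51 to 0.90) in EXO over PBS. Both comparisons share the PBS library, so a value that is odd in PBS enters both.

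Many genes that were 2-fold apart were higher in other kinds of cells than in the members. In dEXO over PBS, 980 of 11196 genes (8.75%) were at least 2-fold higher and 82 (0.732%) lower, and relative to the median gene 765 (6.83%) were higher and 154 (1.38%) lower. When a gene also had to be no higher in the other kept cells of the library where it led, 100 (0.893%) higher and 43 (0.384%) lower genes were left. In EXO over PBS, 679 of 11547 genes (5.88%) were higher and 54 (0.468%) lower, relative to the median gene 489 (4.23%) and 109 (0.944%), and under the same guard 163 (1.41%) and 33 (0.286%). In dEXO over EXO, 594 of 11449 (5.19%) were higher and 51 (0.445%) lower, relative to the median gene 591 (5.16%) and 51, and under the guard 13 (0.114%) and 34 (0.297%). Over all members the counts were far larger, with 4507 (29.7%) higher and 3055 (20.1%) lower in dEXO over PBS. They were 3126 (20.6%) higher and 313 (2.06%) lower in EXO over PBS, and 544 (3.46%) higher and 703 (4.47%) lower in dEXO over EXO. Germ cell transcripts in the members were highest in dEXO, with Ldhc at 694 CPM (dEXO), 246 (EXO) and 70.8 (PBS) and Meig1 at 608 CPM (dEXO), 266 (EXO) and 69.6 (PBS). The Leydig cell transcript Insl3 ran the other way, at 707 CPM (dEXO), 1175 (EXO) and 1668 (PBS). Genes named below passed the guard or belong to a list.

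Immediate early genes, which cells switch on within minutes of a stimulus, were lower in both exosome libraries than in the PBS library. In dEXO over PBS, 8 of 19 genes of the list with enough UMIs were at least 2-fold lower and none higher, and 12 were that much lower relative to the median gene, on which scale the list median was -1.17. In EXO over PBS, 7 of 21 were at least 2-fold lower, and 11 relative to the median gene, with a list median of -1.02 on that scale. Over all tested genes 0.732% (dEXO over PBS) and 0.468% (EXO over PBS) were that much lower, and relative to the median gene 1.38% (dEXO over PBS) and 0.944% (EXO over PBS). Junb and Jun, subunits of the AP-1 transcription factor, stood at 403 CPM (dEXO), 407 (EXO) and 1108 (PBS) for Junb and 449 CPM (dEXO), 406 (EXO) and 1146 (PBS) for Jun. Their partner Fos was at 577 CPM (dEXO), 607 (EXO) and 1303 (PBS). In each of these 3 genes PBS was the high library and the 2 exosome libraries were close to each other.

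Other response genes followed. Socs3, the feedback inhibitor of cytokine signalling through STAT3, stood at 90.5 CPM (dEXO), 80.1 (EXO) and 258 (PBS), a difference relative to the median gene of -1.73 (-1.93 to -1.55) in dEXO over PBS and -1.92 (-2.08 to -1.77) in EXO over PBS. Btg2, an antiproliferative factor, was at 174 CPM (dEXO), 185 (EXO) and 426 (PBS), Ier2 at 339 CPM (dEXO), 329.7 (EXO) and 734 (PBS) and the stress-induced factor Atf3 at 15.4 CPM (dEXO), 15.3 (EXO) and 37.7 (PBS). Nr4a1, an orphan nuclear receptor, broke the pattern: it stood at 64.5 CPM (dEXO), 177 (EXO) and 105 (PBS), so EXO was its high library and dEXO its low one, as in other stromal cells, at 53.6 (dEXO), 207 (EXO) and 87.0 (PBS). In Klf2 and Klf4 the libraries differed by less than 2-fold, with Klf2 at 633 CPM (dEXO), 719 (EXO) and 809 (PBS).

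The lower level was not confined to the members. In other stromal cells the immediate early list had medians of -0.96 in dEXO over PBS and -0.87 in EXO over PBS, relative to the median gene, and Junb differed there by -1.43 (dEXO over PBS) and -1.44 (EXO over PBS). With 1 library per group, the injection and the preparation of a library cannot be told apart. Heat shock genes had list medians of -0.42 (dEXO over PBS) and -0.38 (EXO over PBS) relative to the median gene, with Hspa1a, whose reads may be shared with Hspa1b, at 66.2 CPM (dEXO), 74.3 (EXO) and 142 (PBS).

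**Figure D5:**
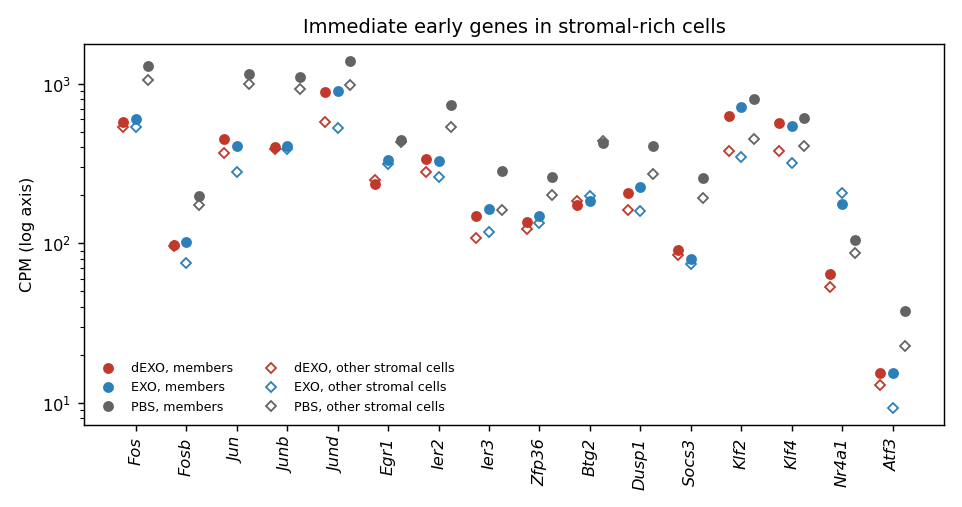
CPM (y axis, log scale) of 16 immediate early genes (x axis) in the dEXO, EXO and PBS libraries, as filled circles for stromal-rich members and open diamonds for other stromal cells, 1 library per group. PBS lies highest for Fos, Jun, Junb and Socs3 in both kinds of cells, and EXO lies highest for Nr4a1.

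Because 7 immediate early genes (Fos, Jun, Junb, Ier2, Atf3, Btg2 and Socs3) were at least 2-fold lower in both exosome libraries, the 250 bases before their start sites were searched for TGACG, the core of the sites of CREB and ATF factors, on both strands. RefSeq promoters of GRCm38.p6 gave a sequence for 6 of the 7, and 4 of the 6 held TGACG, against 17.8% of 32851 promoters of the same length. The 4 are printed from 5′ to 3′ on the strand of the gene, to show where the motif lies, with motif letters in capitals (TGACG, its reverse complement CGTCA, and in Fos also the TATA-type motif TATAAA).
Fos promoter: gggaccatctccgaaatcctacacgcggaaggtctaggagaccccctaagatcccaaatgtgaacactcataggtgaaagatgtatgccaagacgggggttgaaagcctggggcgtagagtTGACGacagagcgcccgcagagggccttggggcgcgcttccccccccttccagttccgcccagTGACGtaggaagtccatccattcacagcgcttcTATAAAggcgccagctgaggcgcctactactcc
Junb promoter: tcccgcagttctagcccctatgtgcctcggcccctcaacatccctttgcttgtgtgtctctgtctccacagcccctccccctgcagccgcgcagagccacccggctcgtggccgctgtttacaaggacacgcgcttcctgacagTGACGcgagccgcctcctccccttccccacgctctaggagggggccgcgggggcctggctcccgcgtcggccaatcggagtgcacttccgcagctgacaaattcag
Atf3 promoter: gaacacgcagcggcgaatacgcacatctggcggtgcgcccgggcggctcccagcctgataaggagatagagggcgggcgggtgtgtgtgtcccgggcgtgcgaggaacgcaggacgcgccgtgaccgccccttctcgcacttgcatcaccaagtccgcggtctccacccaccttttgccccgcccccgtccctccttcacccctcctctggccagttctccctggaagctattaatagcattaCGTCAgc
Btg2 promoter: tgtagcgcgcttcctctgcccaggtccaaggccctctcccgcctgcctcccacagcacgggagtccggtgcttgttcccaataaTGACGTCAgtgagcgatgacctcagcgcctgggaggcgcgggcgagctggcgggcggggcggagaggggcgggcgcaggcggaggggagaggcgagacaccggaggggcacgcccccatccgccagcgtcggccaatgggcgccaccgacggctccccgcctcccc
Fos (chr12:85473640-85473889, plus strand) held TGACG 129 and 66 bases before the start, and TATAAA 33 bases before it, a motif found in 12.4% of all promoters. Junb (chr8:84978749-84978998, minus strand) held TGACG 106 bases before the start. Atf3 (chr1:191183334-191183583, minus strand) held it on the opposite strand 7 bases before the start. In Btg2 (chr1:134079156-134079405, minus strand) matches on both strands, 166 and 163 bases before the start, overlap. The CArG box, the site of serum response factor, was found in 0 of the 6 windows, against 1.47% of all promoters. Sites farther than 250 bases upstream were not searched. Immediate early genes that were not 2-fold lower were not set beside these 6, so the motif counts cannot be tied to the lower level. A match describes these letters, and binding was not measured.

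Some genes outside the immediate early list were lower in the exosome libraries. Of the acute phase and chemokine list, 2 of 14 tested genes were at least 2-fold higher and 1 lower in dEXO over PBS, against 8.75% of all genes higher and 0.732% lower. In EXO over PBS 3 of 16 were higher and 1 lower, against 5.88% and 0.468% of all genes. Relative to the median gene, 1 was higher and 2 lower in dEXO over PBS, with a list median of -0.43, against 6.83% and 1.38% of all genes. On that scale 2 were higher and 1 lower in EXO over PBS, with a list median of -0.18, against 4.23% and 0.944% of all genes. Cxcl1, a neutrophil chemokine, stood at 16.7 CPM (dEXO), 21.0 (EXO) and 64.7 (PBS), with PBS the high library. Serpina3n, an acute phase protease inhibitor, was at 122 CPM (dEXO), 94.7 (EXO) and 256 (PBS). Ptn, the growth factor pleiotrophin, was graded, at 38.9 CPM (dEXO), 72.9 (EXO) and 103 (PBS). Mir6236 was at 71.0 CPM (dEXO), 51.0 (EXO) and 176 (PBS). Some abundant secreted genes differed by less than 2-fold: Sparc stood at 2830.2 CPM (dEXO), 2904 (EXO) and 4352 (PBS), Igfbp7 at 1967 CPM (dEXO), 2004 (EXO) and 2954 (PBS) and Htra1 at 512 CPM (dEXO), 576 (EXO) and 770.0 (PBS).

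Other named genes were higher in both exosome libraries. Fibronectin, Fn1, stood at 50.2 CPM (dEXO), 51.5 (EXO) and 21.1 (PBS), which relative to the median gene was 1.03 (0.68 to 1.38) in dEXO over PBS and 1.05 (0.75 to 1.36) in EXO over PBS. It differed in other stromal cells too, by 1.73 (dEXO over PBS) and 1.52 (EXO over PBS). Comp, a cartilage and tendon matrix protein, was at 18.1 CPM (dEXO), 18.2 (EXO) and 6.23 (PBS), the cytokine Lif at 14.3 CPM (dEXO), 19.1 (EXO) and 5.91 (PBS) and the non-coding host RNA Snhg9 at 46.1 CPM (dEXO), 54.8 (EXO) and 16.6 (PBS). PBS was the low library in all 4. Emilin2, Smpd3 and Igfbp5 were higher in EXO over PBS from low counts, Igfbp5 at 8.53 CPM (dEXO), 9.28 (EXO) and 1.44 (PBS). Kcnc2, Rfx3, Zfp653, Coil and Pde7a were at most 22.2 CPM in any library.

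Several interferon-induced genes were highest in the dEXO members. Of 22 tested interferon genes, 4 (Ifit1, Ifit3, Oasl2 and Iigp1) were at least 2-fold higher in dEXO over PBS and none lower, against 8.75% of all genes higher, and 1, Ifit1, relative to the median gene, against 6.83% of all genes on that scale. Iigp1, an immunity-related GTPase, stood at 89.1 CPM (dEXO), 53.6 (EXO) and 40.9 (PBS), and Irgm2, a GTPase of the same family, at 38.2 CPM (dEXO), 20.3 (EXO) and 13.4 (PBS). Ifit1, which binds viral RNA, was at 30.4 CPM (dEXO), 16.3 (EXO) and 11.98 (PBS), and Ifit3 at 34.8 CPM (dEXO), 20.5 (EXO) and 17.4 (PBS), with reads possibly shared with Ifit3b. Over all members Iigp1 and Ifit3 were lower in dEXO over PBS, with log2 ratios of -0.29 for Iigp1 and -0.32 for Ifit3. The list median relative to the median gene was 0.36 in dEXO over PBS, -0.00 in EXO over PBS and 0.33 in dEXO over EXO, where 20 of 23 genes were higher and none by 2-fold. Other stromal cells had 0.54 (dEXO over PBS), 0.13 (EXO over PBS) and 0.41 (dEXO over EXO), so the difference was not limited to the members. Bst2 and Isg15, of the same list, did not follow, Bst2 at 268 CPM (dEXO), 273 (EXO) and 241 (PBS).

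Single genes also differed between dEXO and EXO members. Acta2, smooth muscle actin, stood at 23.2 CPM (dEXO), 11.4 (EXO) and 7.35 (PBS), so dEXO was the high library, and in other stromal cells it was at 15.6 (dEXO), 5.84 (EXO) and 3.82 (PBS). Cells with a UMI of Myh11 were left out by the rule, and the 12 myoid and smooth muscle genes, Acta2 among them, summed to 961 CPM (dEXO), 977 (EXO) and 872 (PBS), against 1363 CPM (dEXO), 1358 (EXO) and 1158 (PBS) in other stromal cells. Acta2 was the 1 of 8 tested myoid genes at least 2-fold higher in dEXO over EXO. S100a6 and Crip1, whose levels are given above, were highest in EXO, and in dEXO over EXO S100a6 differed by -0.50 (-0.54 to -0.45) and Crip1 by -0.82 (-0.92 to -0.71) relative to the median gene. In other stromal cells the same values were -0.15 for S100a6 and -0.30 for Crip1. All 15 S100 and annexin genes were lower in dEXO over EXO relative to the median gene, with a list median of -0.25, and none by 2-fold, against -0.04 in other stromal cells. Has1, a hyaluronan synthase, stood at 3.76 CPM (dEXO), 11.2 (EXO) and 3.83 (PBS), and Ripor2 at 3.76 CPM (dEXO), 12.1 (EXO) and 4.79 (PBS). Il31ra, a cytokine receptor, was at 12.3 CPM (dEXO), 3.98 (EXO) and 3.99 (PBS), and Acvr2b, an activin receptor, at 12.3 CPM (dEXO), 4.55 (EXO) and 4.15 (PBS). The last 4 rest on few UMIs.

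Energy and matrix groups differed by less. Relative to the median gene, 33 of 35 oxidative phosphorylation genes were lower in dEXO over PBS and all 35 in EXO over PBS, with list medians of -0.45 (dEXO over PBS) and -0.42 (EXO over PBS). The same medians in other stromal cells were -0.30 (dEXO over PBS) and -0.19 (EXO over PBS). Unscaled, the list medians were -0.23 (dEXO over PBS) and -0.19 (EXO over PBS) in members. In other stromal cells they were -0.12 (dEXO over PBS) and 0.0086 (EXO over PBS) unscaled. None of the 35 genes passed 2-fold in members, apart from Ndufa1 in dEXO over PBS at -1.02 relative to the median gene. Cox8a, a subunit of cytochrome c oxidase, stood at 497 CPM (dEXO), 607 (EXO) and 775 (PBS). Of 23 fibrillar collagen genes and their regulators none was 2-fold apart in any pair. They include Col1a1, Col1a2, Col3a1 and Dcn, whose levels depend on the rule and on the stromal-rich limit. Col1a1 stood at 1048 CPM (dEXO), 1167 (EXO) and 857 (PBS). Relative to the median gene, adventitial genes outside the rule were lower in dEXO over EXO for 17 of 18, with a list median of -0.17, and higher in EXO over PBS for 17 of 18, with a list median of 0.36. In dEXO over PBS 13 of 17 were higher, with a list median of 0.05. In other stromal cells the same list had medians of 0.0073 (dEXO over EXO), 0.13 (EXO over PBS) and 0.04 (dEXO over PBS). The comparisons share libraries.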

How the data were processed

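Single-cell 3' libraries of testis from the dEXO, EXO and PBS groups (1 each) were analysed from the UMI count matrices the authors deposited. Per the file headers, Cell Ranger 5.0.1 made the counts, and the submitters' processing notes also name Seurat and the build GRCm38. The values are raw counts per gene and cell, of 91787154 to 97253862 UMIs per library.

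The members and gene lists were chosen with earlier results of these data known. Counts were summed per library and set of cells and given as CPM (a gene's share of all UMIs times 1000000). A gene was tested with at least 50 UMIs in the pair compared, summed over both sides, and called at 2-fold. Exact conditional binomial intervals (log2 ratios), exact Clopper-Pearson intervals (shares) and conditional odds ratios have a level of 95% and cover counting error only, and a count of 0 allows up to 3 counts. The design named all members as the main set. The printed levels come from stromal-rich cells, chosen after the data were seen because germ cells held most UMIs of the full set in dEXO. Named genes were the genes of the rule, the 25 highest and 10 lowest against other stromal cells and the 10 highest and 10 lowest per pair of libraries by the interval bound nearest 0, without mitochondrial, ribosomal, haemoglobin and predicted genes, and up to 4 of highest CPM and 4 of farthest bound per list. Between libraries a gene also had to reach, in the members where it was higher, its CPM in the other kept cells. Genes given as examples of a list or of a split beyond this were chosen after their values were seen.

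Scrublet (scanpy 1.11.5) called 0 (dEXO), 2 (EXO) and 4 (PBS) doublets, so it did not work as a caller here, doublets were kept, and removing the highest scores was an alternative. Other alternatives were thinning to 1000 UMIs, a minimum of 3 UMIs of the rule genes, a mean of per-cell CPM, scaling to the median gene, a gene minimum of 10, and at most 10% mitochondrial UMIs. The log2 ratios with their intervals and the share intervals were tested on simulated counts. Thinning was checked on cells of the PBS library, and the other steps were not tested on simulated data. Computation used pandas 2.3.3, scipy 1.17.1 and numpy 2.4.6 under Python 3.11.15, drawing used matplotlib 3.10.9, with gene positions from GENCODE (GRCm38).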

Additional observations from a re-analysis of the deposited data

How the results depend on the processing

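With 1 library per group, leaving out a library was not done and the spread between samples is unknown. No paired analysis was possible because each group has 1 library and the labels carry no replicate numbers. Depth limits genes under 50 UMIs and detection per cell.

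The odds ratio of members among stromal cells was 0.562 (dEXO over PBS), 0.563 (EXO over PBS) and 0.997 (dEXO over EXO). Thinned to 1000 UMIs it was 0.663 (dEXO over PBS) and 0.665 (EXO over PBS), and over all kept cells 0.841 (EXO over PBS) and 0.664 (dEXO over EXO).

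Counts over all members moved with several settings. Against other stromal cells, 1531 genes were 2-fold higher and 281 lower over all members, and 26 higher and 21 lower over stromal-rich members. Genes of the rule were kept in all these counts. The counts were 15 higher and 7 lower when thinned, 21 and 33 by the mean of per-cell CPM, 2371 and 632 with a gene minimum of 10, and 83 lower when scaled to the median gene. In dEXO over PBS, 4507 higher and 3055 lower genes over all members became 980 and 82 over stromal-rich members, 643 and 51 when thinned, and 154 lower by the per-cell mean. In EXO over PBS, 3126 higher and 313 lower became 679 and 54 over stromal-rich members, 462 and 37 when thinned, 4839 and 714 with a gene minimum of 10, and 123 lower by the per-cell mean. In dEXO over EXO, 544 higher and 703 lower became 51 lower over stromal-rich members, 43 lower when thinned, 2017 and 307 by the per-cell mean, 840 and 411 when scaled, and 1430 and 1534 with a gene minimum of 10.

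Among stromal-rich members, counts against other stromal cells were 16 higher and 9 lower when thinned, 37 higher and 10 lower when scaled to the median gene, and 50 higher and 68 lower with a gene minimum of 10, where more genes were lower than higher. Between libraries, 980 higher and 82 lower in dEXO over PBS became 414 and 46 when thinned, 765 and 154 when scaled, and 2879 and 331 with a gene minimum of 10. In EXO over PBS, 679 and 54 became 345 and 35 when thinned, 489 and 109 when scaled, and 2361 and 245 with a gene minimum of 10. In dEXO over EXO, 594 and 51 became 242 and 31 when thinned and 1623 and 407 with a gene minimum of 10. The tested genes differ between these settings, from 6095 when thinned to 15933 with a gene minimum of 10. Of 1127 values of named genes, all stayed within their counting interval under the minimum of 3 UMIs. Over all members 145 stayed within it and 965 moved, and a change of direction in values under 2-fold was not listed. Of 210 list medians, 196 moved by 0.1 or more over all members. Another 17 values of named genes, at least 2-fold apart over stromal-rich members, reversed over all members. In members over other stromal cells of dEXO these were S100a6 (-0.14), Gsn (-0.21), Cd9 (-0.21), Ccdc3 (-0.11), Tnxb (-0.25), Lpl (-0.36), Thbs3 (-0.076), Tgfbr2 (-0.25), Fn1 (-0.31), Adgrd1 (-0.091), Plat (-0.69) and Rspo1 (-0.21), and in EXO Plat (-0.054) and Ccnb1 (1.25). In dEXO over PBS they were Iigp1 (-0.29), Masp1 (-0.59) and Ifit3 (-0.32). Lcn2 in PBS was -0.0054 when thinned and -0.038 by the per-cell mean. The stromal-rich limit removes cells that hold most of the germ cell UMIs; the cause of the other shifts was not tested.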

Other observations

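Cell cycle genes were sparse in the members: Plk1 stood at 14.7 CPM (dEXO), 6.82 (EXO) and 6.87 (PBS), Bub1 at 11.3 CPM (dEXO), 4.74 (EXO) and 4.63 (PBS), and Ccnb1 at 18.4 CPM (dEXO), 8.34 (EXO) and 10.2 (PBS). These are 3 of 20 tested proliferation genes that were at least 2-fold higher in dEXO over EXO, against 5.19% of all genes, and germ cell genes were higher in dEXO as well, with their part not tested. The p53 target list had no gene at least 2-fold apart between members and other stromal cells in all 3 libraries, near the shares over all tested genes, 0.243% higher and 0.196% lower. Of the hormone and growth factor receptors, 10 of 17 were lower in members of every library, none by 2-fold, against 40.1% of all tested genes lower. Aldh1a1, which makes retinoic acid, stood at 1209 CPM (dEXO), 1321 (EXO) and 1307 (PBS) in members, against 1352 (dEXO), 1669 (EXO) and 1282 (PBS) in other stromal cells.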
